A study of Mus musculus with 2 samples.

Results

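The subject is a single library of bone marrow derived macrophages (BMDM), 1 of the 2 libraries of the series, described on its own. All genes were ranked by their level in its column, and the 200 highest of 34295 genes were taken for close description. No value from the other library entered that choice. The cells came from wild type C57BL/6J mice. Marrow flushed from femurs and tibias was freed of red cells by hypotonic lysis and kept overnight in RPMI with 10% serum and 30% medium conditioned by L929 cells, a mouse fibroblast line that releases the macrophage growth factor CSF1. Cells that had not attached by the next day were moved to petri dishes in the same medium. On day 6 the cells were lifted with cold EDTA, 750000 were placed in a well of a 12-well plate, and the attached cells were lysed after a night in culture. The other library holds fibroblasts (MEF) of midgestation embryos of the same strain, taken without head and fetal liver, grown in DMEM with 10% serum, sorted to lack CD45, CD11b and F4/80, passaged, and lysed from a culture of 100000 cells. Both are labelled wild type, and no allele, transgene or drug is named for either. The labels do not say how many mice were pooled or what sex they were. Both libraries were made from polyadenylated RNA with a stranded kit and read as pairs of 76 bp.

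Levels are given as TPM, the share of a library's transcripts that a gene holds, corrected for transcript length and scaled to a fixed total, so that genes can be compared with each other. With 1 library there is no replicate, no value below has an error, and no test was made. How deeply the library was sequenced cannot be read from TPM, and no detection limit can be given. A gene at exactly 0 is called listed at 0. The term expressed is used here for a level of 5 TPM or more, which 9365 genes reached, 27.3% of all genes. Among the 21606 genes annotated as protein coding, 41.8% reached 5 TPM and 6.68% reached 100 TPM. These shares are the background for the counts in gene lists below.

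Macrophages are phagocytes of the innate immune system. They take up particles, dead cells and iron from old red cells, break them down in lysosomes, and report on what they find through surface receptors and secreted proteins. Marrow progenitors become macrophages in culture when CSF1 engages its receptor, the product of Csf1r, and the transcription factor PU.1, the product of Spi1, is needed for that lineage.

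The library carried all 6 macrophage markers at high levels. Lyz2, which encodes the bacteria-digesting lysozyme of myeloid cells, stood at 12375 TPM and ranked 4th of all genes (chr10:117277331-117282321, minus strand, GRCm38). C1qb, a chain of the complement starter C1q, reached 3514 TPM. Cd68, a heavily glycosylated protein of macrophage lysosomes, reached 3092 TPM (chr11:69664213-69666153, minus strand). Csf1r, the receptor through which the culture medium acts, stood at 640.0 TPM, and Adgre1, which encodes the F4/80 antigen, at 399 TPM. Spi1, the lowest of the 6, stood at 355 TPM. Together the 6 held 2.04% of the library, and Lyz2 alone made up 60.7% of that sum.

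Lyz2 has a near copy, Lyz1, beside it on chromosome 10. Lyz1 encodes the lysozyme of intestinal Paneth cells and stood at 3.99 TPM. The stretches ahead of both genes are shown to set side by side the flanks of a gene at 12375 TPM and of its neighbour at 3.99 TPM. Sequences are from RefSeq (GRCm38.p6), 5′ to 3′ on the strand of the gene, at chr10:117282322-117282521 for Lyz2 and chr10:117292918-117293118 for Lyz1, and capitals mark bases that differ or lack a partner in the alignment of the pair.
Lyz2: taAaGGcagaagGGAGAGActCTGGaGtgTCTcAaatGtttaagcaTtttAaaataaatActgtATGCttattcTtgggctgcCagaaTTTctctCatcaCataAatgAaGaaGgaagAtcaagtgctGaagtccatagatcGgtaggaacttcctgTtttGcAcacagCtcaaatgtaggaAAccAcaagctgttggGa
Lyz1: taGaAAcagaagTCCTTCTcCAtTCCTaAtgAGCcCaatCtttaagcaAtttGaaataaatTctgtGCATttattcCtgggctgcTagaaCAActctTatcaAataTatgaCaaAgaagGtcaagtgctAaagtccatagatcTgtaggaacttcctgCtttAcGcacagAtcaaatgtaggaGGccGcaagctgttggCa
Of 199 aligned positions 151 were identical (75.9%). The longest run of differing bases lies near the start of the stretch, farthest from the genes, and shorter differences are spread over the rest. The transcripts also overlap. Of the 31-base words in annotated Lyz2 transcripts, 32.8% occur in Lyz1 too, so reads from those words cannot by themselves be told apart.

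Cd68 is shown next, as a marker whose upstream stretch holds a known pattern more than once. Capitals mark TGACTCA on either strand, the core letters to which AP-1 factors bind, at chr11:69666171-69666330.
Cd68: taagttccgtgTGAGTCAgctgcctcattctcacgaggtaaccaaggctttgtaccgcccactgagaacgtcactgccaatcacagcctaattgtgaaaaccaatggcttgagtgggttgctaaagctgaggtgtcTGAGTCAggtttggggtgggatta
The letters occur on the reverse strand from position -149 and from position -24, counted from the RefSeq start of transcription. In windows of 300 bases around the starts of protein-coding genes, 250 before and 50 after, TGACTCA was found in 4.65% of 19922 windows. A match describes letters only and shows no binding. AP-1 factors themselves were present: Atf3 stood at 168 TPM, Jun at 116, Jund at 107 and Junb at 96.8, whereas Fosl1 (1.38 TPM) and Fosb (1.44 TPM) were below 5 TPM. Jund stands in the deposited table in 2 rows of the same value, which were added, so its single-row level is 53.6 TPM.

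Marrow holds many other cell types, and their markers were low with some exceptions. In bulk RNA, few cells with much of a transcript and many cells with little cannot be told apart. Of 13 neutrophil genes, 7 reached 5 TPM (53.8%, beside 41.8% of all protein-coding genes), and the list summed to 525.9 TPM. S100a9 (268 TPM) and S100a8 (157 TPM), a pair of calcium-binding proteins that monocytes also carry, made up most of it. Of 8 granule genes in the list 4 reached 5 TPM, and the 8 summed to 83.9 TPM. Ngp, a neutrophil granule protein, stood at 48.3 TPM, while the granule enzymes Mpo (2.83 TPM) and Elane (2.34 TPM) were below 5 TPM. Ly6g, the usual neutrophil surface marker, was listed at 0. Megakaryocyte genes summed to 661.0 TPM, of which the platelet chemokine Pf4 gave 633 TPM and Vwf 27.3 TPM. The receptor and integrin genes that define that lineage were near nothing, with Itga2b at 0.229 TPM and Gp1bb, Gp9 and Gp5 listed at 0. Among monocyte and progenitor genes, Ly6c2 stood at 83.5 TPM, Ccr2 at 32.5 and Cd34 at 11.1, and Kit (0.402 TPM) and Flt3 (0.0803 TPM) were below 1 TPM.

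The remaining lineages gave little RNA. B cell genes summed to 16.02 TPM, of which Ighm, the heavy chain of immunoglobulin M, was 10.98 TPM. Ighm is not in the protein-coding class of the annotation, and with that class alone the share of the B cell list fell from 0.00160% to 0.000529%. T and NK cell genes summed to 5.31 TPM, dendritic cell genes to 4.84, erythroid genes to 1.08 and mast cell genes to 0.475, and no member of these 4 lists reached 5 TPM. Endothelial genes summed to 11.4 TPM, and adipocyte and osteoblast genes to 3.88. Fibroblast and stromal genes summed to 23.4 TPM, with Acta2 highest at 7.80 TPM and the collagen chain Col1a1 at 3.66 TPM. In the osteoclast list, a fate that CSF1-grown cells can take, only the factor Nfatc1 (20.9 TPM) passed 5 TPM, and the resorbing enzymes Acp5 (3.70 TPM) and Ctsk (2.26 TPM) did not. Genes of tissue-resident macrophages were mostly below 5 TPM. Of 15, the fatty-acid carrier Fabp4 (76.1 TPM) and the microglial genes Tmem119 (24.8 TPM) and P2ry12 (11.1 TPM) were expressed, and Clec4f, Timd4, Car4, Sall1 and Lyve1 were listed at 0. Fabp4 and Tmem119 were not particular to the macrophage library, at 79.9 and 62.8 TPM in the fibroblast library, where P2ry12 was listed at 0. Whether any of these transcripts came from other cells was not tested.

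**Figure D1:**
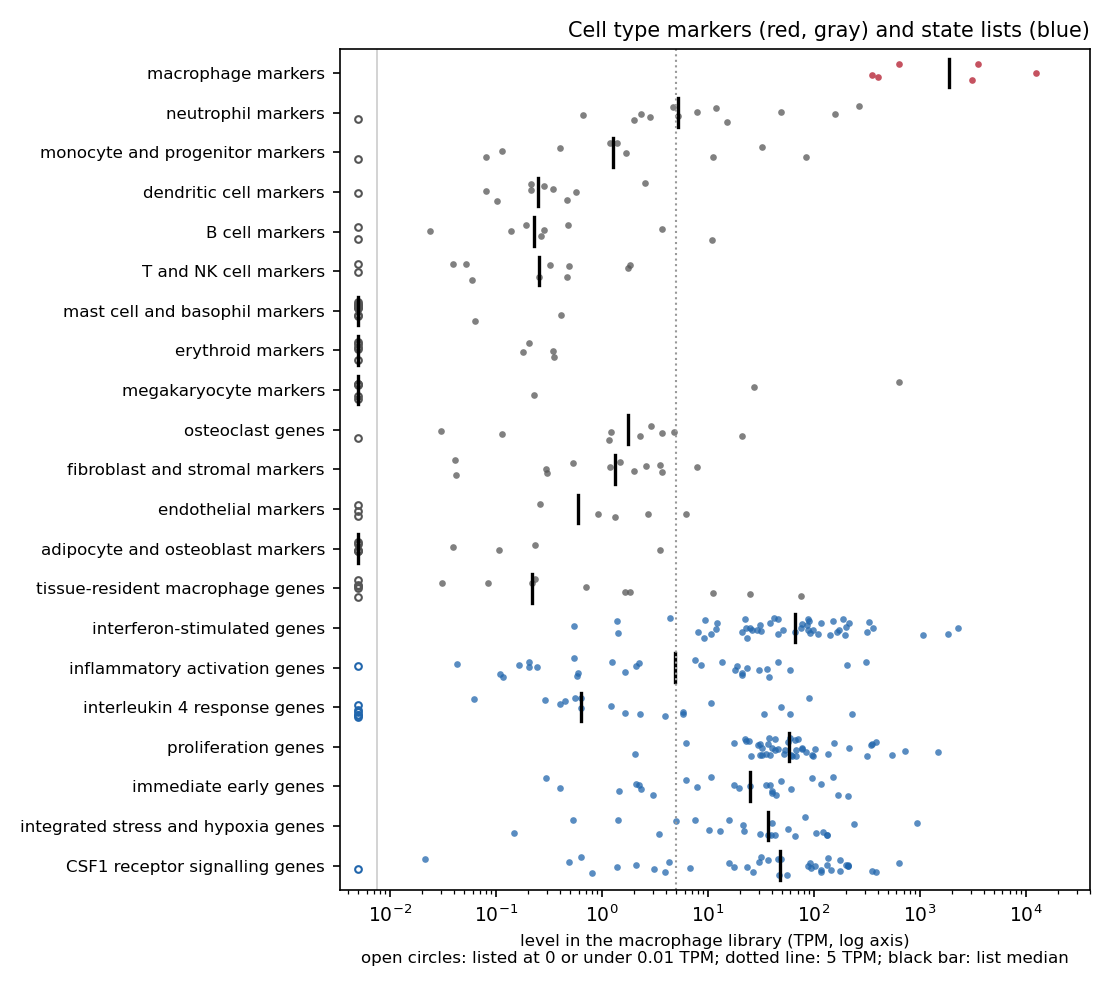
Each point is 1 gene of the macrophage library, placed by its level in TPM on a log axis, in the marker lists (red and gray) and the lists of cell states (blue); black bars are list medians and open circles genes at 0 or below 0.01 TPM. The 6 macrophage markers lie between 355 and 12375 TPM, to the right of every other marker gene except Pf4 at 633 TPM, which lies among them.

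RNA in this library was concentrated in few genes. The column summed to 999609 TPM. The 2 highest genes held 4.98%, the 10 highest 12.5%, the 200 highest 44.6%, and 283 genes held 50%. The fibroblast library was more even: its 10 highest genes held 6.47%, its 200 highest 39.9%, and 379 genes held 50%. In the macrophage library 157 genes reached 1000 TPM, 1519 reached 100 TPM and 11429 reached 1 TPM, while 17837 were listed at 0, 6999 of them protein coding. The median of the 200 highest genes was 1470 TPM against 28.1 TPM over all expressed genes. At the edge of the 200, Gabarap, a membrane-anchored autophagy protein, was the last gene inside at 786 TPM, and Tagln2, an actin-binding protein, the first outside at 780.4 TPM.

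**Figure D2:**
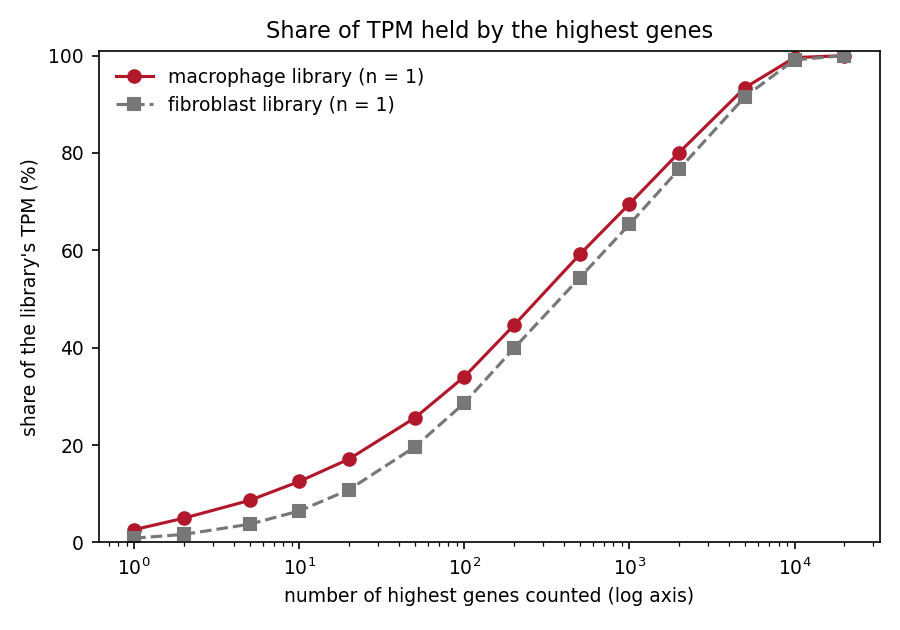
Cumulative share of each library's TPM (percent, vertical) held by its highest genes (number of genes, horizontal, log axis), 1 line per library. The macrophage line lies above the fibroblast line from the first gene, at 2.63% against 0.867%, to the 200th, at 44.6% against 39.9%.

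Iron storage led the ranking. Fth1, the heavy chain of ferritin that oxidizes iron for storage, was the highest gene at 26253 TPM (chr19:9980598-9985098, plus strand). Ftl1, the light chain of the same shell, was next at 23564 TPM (chr7:45457944-45459884, minus strand). The chains were at similar levels and together held more RNA than the 6 macrophage markers. They differ in how far reads can be placed. Of the 31-base words of Fth1, 7.18% occur in other genes, but of those of Ftl1 92.0% do, mostly in the copy Ftl1-ps1.

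Lysosomal, secreted and cytoskeletal genes followed. Ctsd, the aspartic protease cathepsin D, stood 3rd at 13893 TPM (chr7:142375911-142388038, minus strand). Tmsb4x, which encodes the actin-sequestering peptide thymosin beta 4, stood 5th at 10242 TPM. Spp1 (osteopontin, a secreted adhesive phosphoprotein) had 9998 TPM and Lgals3 (galectin 3, a secreted and cytosolic lectin) 8795 TPM. B2m, the light chain shared by all MHC class I molecules, had 7126 TPM. The translation factor Eef1a1 (6489 TPM) and Lars2, the leucine tRNA ligase of mitochondria (6453 TPM), completed the 10 highest. Where in the Lars2 gene its reads lie was not examined. Thus 7 of the 10 highest genes serve iron storage, digestion, secretion or antigen display, and 1 of the 10 is a part of the general translation machinery of the cytosol.

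By role, the 200 highest genes fell into groups of unequal size. Ribosomal proteins were the most numerous, 55 genes with 7.59% of the library, led by Rplp1 at 3639 TPM. The lysosome group had 19 genes and 5.51%. Cstb (1601 TPM), a cathepsin inhibitor, was put in this group although it is not in the lysosome lists used below. Complement, chemokines, lysozyme and other secreted proteins had 14 genes and 5.43%. The iron and oxidase group had 3 genes and 5.13%: the ferritin pair and Cyba (1506 TPM), a membrane subunit of the phagocyte oxidase. The actin cytoskeleton, with the intermediate filament gene Vim counted in, had 15 genes and 3.62%. Glycolysis and other metabolism had 16 genes and 2.53%, and surface and membrane signalling 13 genes and 2.42%. From the mitochondrial genome 12 genes entered, with 2.91%, led by mt-Co1 (5073 TPM) and mt-Atp8 (4993 TPM), subunits of cytochrome oxidase and of ATP synthase. MHC class I gave 3 genes and 1.10%, annexins and S100 proteins 5 genes and 0.705%, and the interferon-stimulated pair Ifitm3 and Ifi27l2a 0.338%. These roles were assigned by hand, 1 per gene, after the ranking was known.

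**Figure D3:**
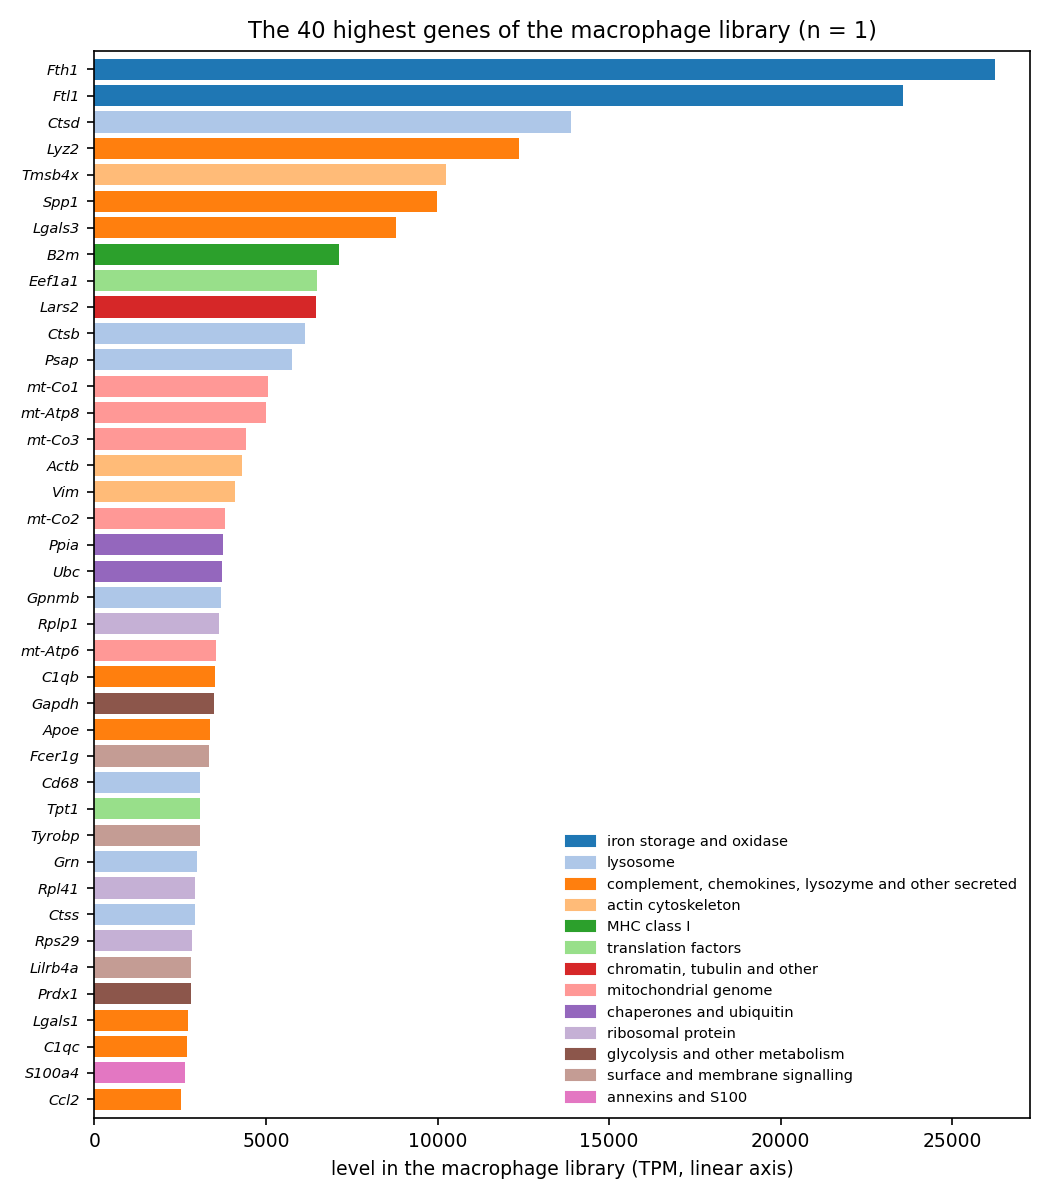
Horizontal bars give the level in TPM (linear axis from 0) of each of the 40 highest genes of the macrophage library, ordered by rank and coloured by assigned role. The ferritin pair, at 26253 and 23564 TPM, stands clear of the next gene, Ctsd, at 13893 TPM, and the last bar, Ccl2, is at 2517 TPM.

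Several entries among the 200 are copies. A group of 21 genes with 3.02% of the library consisted of ribosomal copies, pseudogenes and unnamed models, led by Gm29216 (2494 TPM), 97.2% of whose 31-base words occur in mt-Co1. Other pseudogenes in it are Gm10123 (2054 TPM) and Tpt1-ps3 (1803 TPM), whose words are all found in other genes. Of 198 genes with annotated transcripts, 60 shared at least 50% of their words with other genes and 46 shared less than 1%. The split between copy and parent is therefore uncertain for genes such as Eef1a1 (66.2% shared), mt-Co3 (99.9%) and Rplp1 (75.1%). Macrophage and lysosomal genes fell on both sides. Lilrb4a shared 97.3% of its words, Itgam 70.3%, Ctsd 36.6%, Lilr4b 35.6%, Cd63 32.6%, Atp6v0c 29.8%, Ctsl 29.0%, H2-D1 27.9% and H2-K1 20.3%. Csf1r shared 17.3%, Ctsb 16.6% and Spp1 14.3%. B2m, Psap, Lgals3, C1qa, C1qb, C1qc, Fcer1g, Tyrobp, Cd68, Apoe, Ctss, Trem2, Ccl2, Adgre1 and Spi1 shared no word with another gene.

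High rank went with short genes. The median coding length of the protein-coding genes among the 200 was 634.5 bases, against 1332 among all expressed genes and 1182 over all protein-coding genes. Without ribosomal proteins and mitochondrial genes it was still only 792 bases. TPM divide by transcript length, and the part of that correction in the levels of short genes was not tested. By place, chromosome 7, which carries Ftl1 and Ctsd, held 11.4% of the library, the most of any chromosome, and the mitochondrial genome 2.97%. Chromosome 7 also has the most genes of any chromosome, 3193, of which 681 were expressed, against 790 on chromosome 11.

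Lists of genes by function extended the description beyond the 200. Ribosomal proteins held 8.74% of the library, the 3 lysosome lists together 6.92%, iron and heme handling 5.38%, the actin cytoskeleton 4.84% and matrix and matricellular proteins 2.75%. The matrix list was led by Spp1, with 36.3% of its sum, then Lgals3, Gpnmb and Lgals1, while structural matrix genes were low. Without the 10 highest genes of the library that list held 0.999%. Translation factors held 1.99%, nuclear-encoded respiratory chain subunits 1.85%, chaperones 1.66%, glycolysis 1.53%, the proteasome with ubiquitin 1.45% and redox enzymes 1.045%. Lists overlap, since a gene such as Psap counts as lysosomal and as a growth factor, so the shares do not add up. They were written by hand with earlier results of these libraries known.

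**Figure D4:**
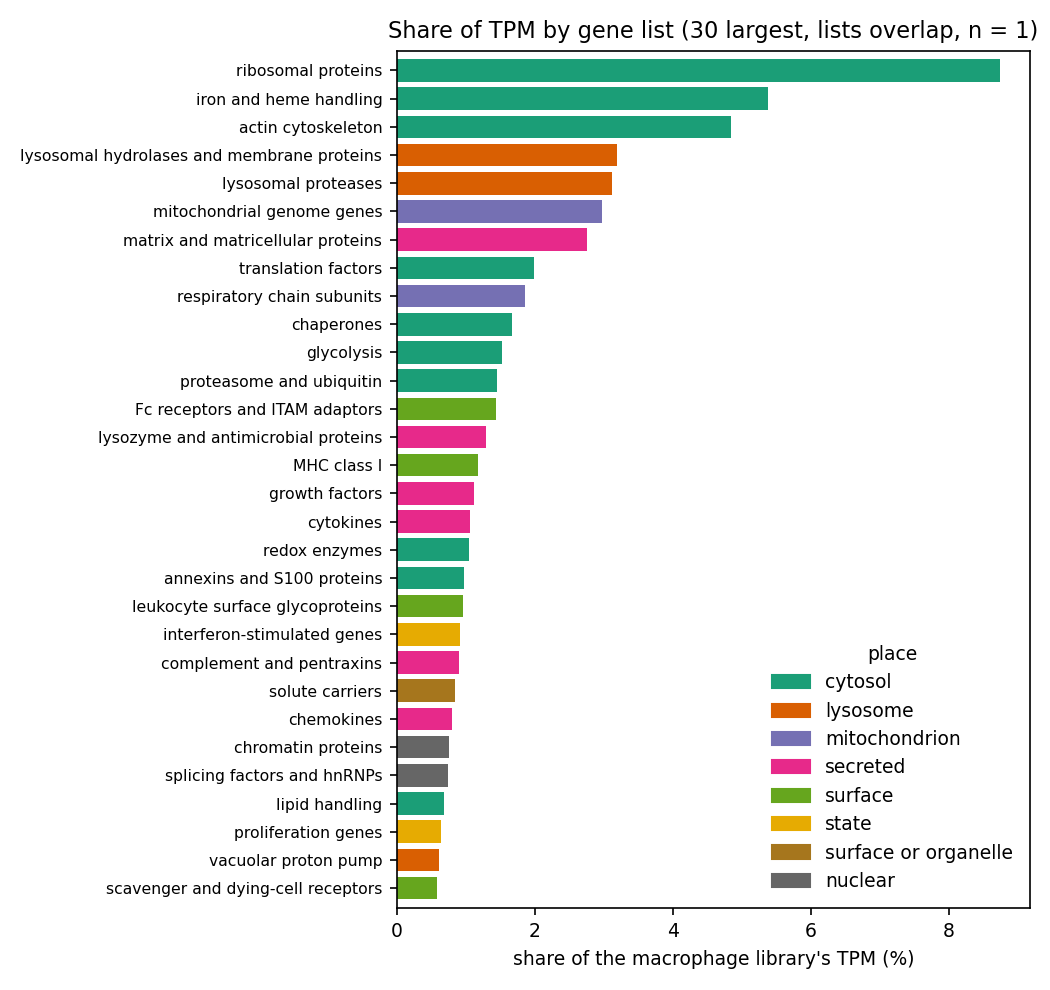
Bars give the percent of the macrophage library's TPM held by each of the 30 largest gene lists (marker lists left out), coloured by the place of the products. Ribosomal proteins (8.74%), iron and heme handling (5.38%) and the actin cytoskeleton (4.84%) are longest, and the separate lysosome lists stand at 3.19%, 3.11% and 0.615%.

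Nearly the whole lysosome was expressed. Of 96 measured lysosomal genes 87 reached 5 TPM and 62 reached 100 TPM, a level reached by 6.68% of protein-coding genes. The median was 213.6 TPM. Proteases were highest: after Ctsd came the cysteine proteases Ctsb (6133 TPM), Ctss (2931 TPM), Ctsz (1836 TPM) and Ctsl (1789 TPM), then the carboxypeptidase Ctsa (1339 TPM) and the asparagine-cleaving Lgmn (1202 TPM). Proteases best known from other cells were low, with Ctsk, the osteoclast collagenase, at 2.26 TPM, Ctse at 1.73 TPM and Ctsw, of killer lymphocytes, listed at 0. Psap, the precursor of the saposins that help enzymes degrade sphingolipids, stood at 5756 TPM. Gpnmb, a lysosomal membrane glycoprotein whose outer part can be shed, had 3696 TPM, Lamp1, a main protein of the lysosomal membrane, 1654 TPM, and Mpeg1, a pore-forming protein of phagosomes, 1606 TPM. The proton pump that acidifies the organelle had 17 of 20 genes expressed, led by its membrane ring subunit Atp6v0c (1369.9 TPM) and the accessory Atp6ap1 (613 TPM). Its alternative subunits Atp6v0d2 (4.81 TPM) and Atp6v1b1 (listed at 0), which other cell types use, were low.

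Beyond ferritin, genes for breaking down heme were expressed at moderate levels. Hmox1, which opens the heme ring and frees its iron, stood at 592 TPM, and Blvrb, which reduces biliverdin, at 182 TPM. Slc11a1, which pumps metal ions out of the phagosome, had 212 TPM. The transferrin receptor Tfrc (49.6 TPM) and the iron exporter Slc40a1 (30.7 TPM) were far below the storage chains. The hormone Hamp (1.04 TPM), the plasma oxidase Cp (1.42 TPM) and the other transferrin receptor Tfr2 (0.792 TPM) were below 5 TPM, and Heph and Ftmt were listed at 0. All 5 oxidase subunits were expressed, and the ones of the membrane differed: Cyba stood at 1506 TPM but its partner Cybb, the catalytic chain, at 160.4 TPM. The cytosolic subunits Ncf1 (269 TPM) and Ncf4 (193 TPM) lay between Cybb and Cyba.

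Secreted, surface and nuclear products were compared as classes within the library. Among 215 measured genes for secreted proteins 99 were expressed (46.0%), among 329 surface genes 226 (68.7%), and among 204 nuclear genes 173 (84.8%), beside 41.8% of all protein-coding genes. By list, the share expressed ran from 36.8% (complement) to 53.6% (matrix) in the secreted class, around that background. It ran from 42.3% (integrins) to 92.9% (MHC class I) in the surface class and from 53.3% (nuclear receptors) to 100% (splicing factors) in the nuclear class. The order of the summed levels was the reverse: the secreted class held 7.84% of the library, the surface class 5.79% and the nuclear class 2.08%. Medians were 2.19, 20.4 and 46.8 TPM. The 5 highest genes held 51.9% of the secreted sum, 33.7% of the surface sum and 20.4% of the nuclear sum. The order of the sums rests on few genes: without the 10 highest genes of the library, which include Lyz2, Spp1, Lgals3 and B2m, the secreted class held 5.39% and the surface class 5.80%. The nuclear class leaves out zinc finger proteins and replication-dependent histones. With these it has 733 genes, of which 401 were expressed (54.7%, less than in the surface class), with a median of 6.00 TPM and 2.47% of the library. The lists were assembled by hand from genes of interest in macrophages and are no random sample of their class. Leaving out members that are also lysosomal, the secreted class held 6.45% and the surface class 5.32%.

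**Figure D5:**
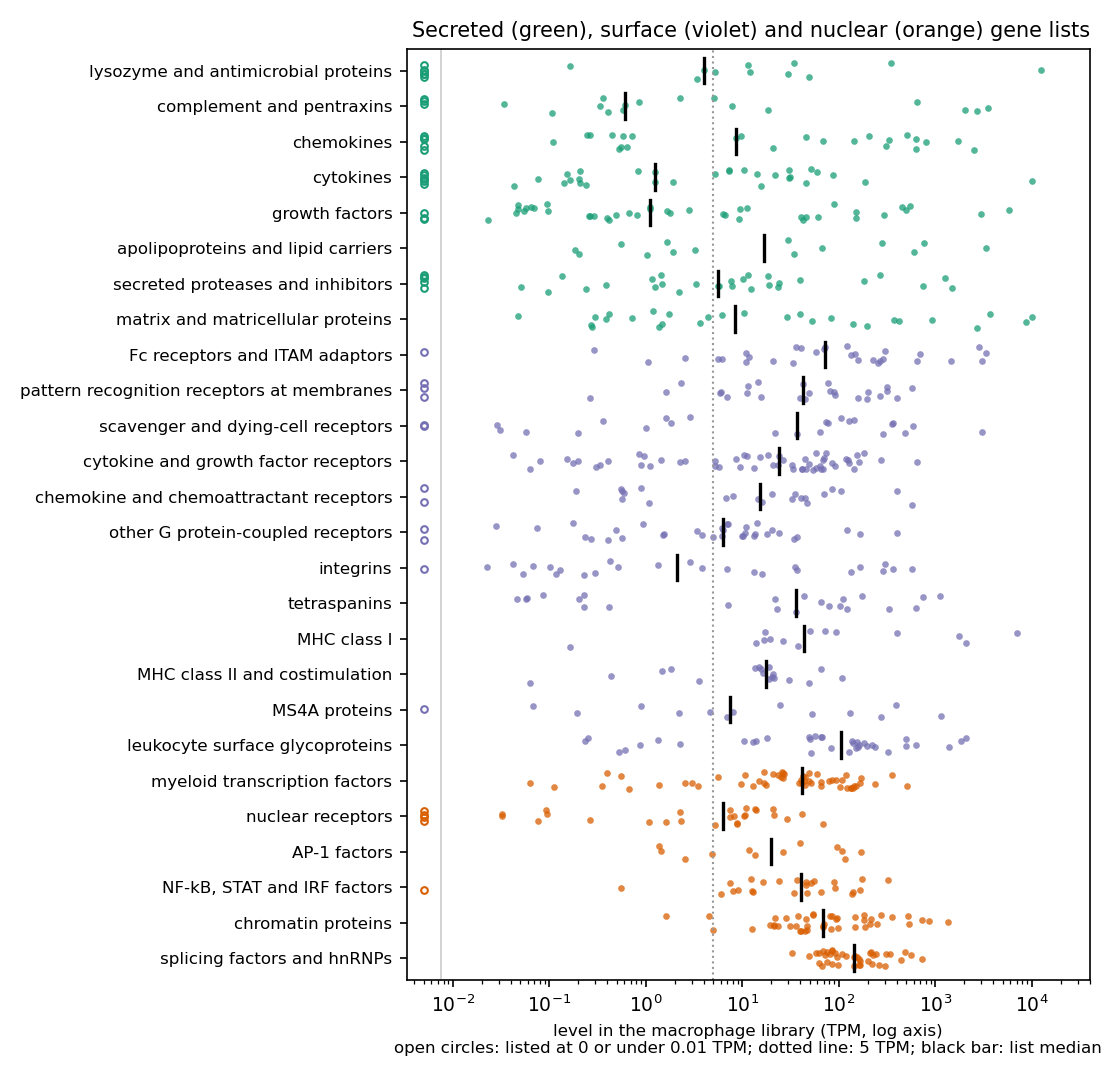
Points are the genes of each secreted (green), surface (violet) and nuclear (orange) list, placed by level in the macrophage library in TPM on a log axis; black bars are medians, the dotted line is 5 TPM, and open circles are genes at 0 or below 0.01 TPM. Secreted lists reach from 0 to 12375 TPM, with medians between 0.607 TPM (complement and pentraxins) and 16.7 TPM (lipid carriers), and all splicing factors lie between 32.4 and 727 TPM.

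Antimicrobial products rested on 1 gene. Lyz2 gave 96.1% of the sum of its list. Rnase4, a secreted ribonuclease, followed at 349 TPM. The lectin-like Chil3 (34.03 TPM), the siderophore-binding Lcn2 (30.1 TPM) and lactoferrin, the product of Ltf (12.02 TPM), were lower, and Ear6, Ear10, Bpi, Chit1, Defb1 and Retnla were listed at 0.

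Complement was represented by C1q and properdin and little else. C1qb (3514 TPM), C1qc (2689 TPM) and C1qa (2049 TPM) are chains of 1 molecule, and their genes lie side by side on chromosome 4. Cfp, properdin, which stabilizes the alternative pathway, stood at 649 TPM. The central component C3 had only 18.4 TPM and factor B, from Cfb, 7.74 TPM. The proteases that form C1 with C1q were low, with C1ra at 5.07 TPM and C1s1 at 0.0340 TPM, and Cfd, Cfi and Masp2 were listed at 0. Of 19 measured members 7 were expressed.

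Chemokines that draw monocytes were high, although no stimulus is named for the culture. Ccl2 had 2517 TPM, Ccl7 1731 TPM and Ccl12 629 TPM; all 3 are ligands of the monocyte receptor CCR2 and lie together on chromosome 11. Mif, a cytokine that also binds chemokine receptors, had 806 TPM, and Pf4 633 TPM. Ccl9 (512 TPM) and Ccl6 (331 TPM), rodent chemokines of macrophages, and Ccl4 (308 TPM) and Ccl3 (205 TPM), inflammatory chemokines, came next. Cxcl16, a membrane-bound chemokine that also binds oxidized lipid, had 143 TPM. Neutrophil-drawing chemokines were low, with Cxcl2 at 8.52 TPM, Cxcl1 at 0.578 TPM and Cxcl5 listed at 0. So were those of the interleukin 4 response, Ccl17 (listed at 0), Ccl22 (0.635 TPM) and Ccl24 (0.446 TPM). In all, 15 of 29 were expressed, and 10 reached 100 TPM.

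Cytokine genes other than osteopontin were low in level. Of 35 in the list 16 were expressed (45.7%), near the 41.8% of all protein-coding genes. Spp1 made 94.2% of the sum of its list. Tnfsf12 (TWEAK, a TNF family ligand) was next in that list at 187 TPM. Mif, counted above with the chemokines, was higher but is not in it. Natural antagonists outranked their agonists: Il1rn, the interleukin 1 receptor antagonist, stood at 87.7 TPM against 1.24 TPM for Il1b and 0.205 TPM for Il1a, and Il18bp at 46.3 TPM against 22.02 TPM for Il18. Tnf had 59.1 TPM. Of 33 measured interleukin genes, 3 were expressed, Il18, Il15 (15.7 TPM) and Il16 (10.5 TPM), and 18 were listed at 0. Il6 had 0.0427 TPM, Il10 0.241 TPM and Il12b 0.164 TPM.

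Growth factors and lipid carriers included some of the highest secreted products. Grn, the precursor of the granulins, had 3001 TPM. Metrnl, a secreted metabolic hormone, stood at 547 TPM, Igf1 at 493 TPM, Gas6, the bridge between dying cells and TAM receptors, at 451 TPM, and Tgfb1 at 152 TPM. Growth factor families of epithelia and mesenchyme were low, with Fgf7, Fgf10, Ereg and Angpt1 all below 0.1 TPM and Bmp4, Bmp6 and Bdnf listed at 0. Apoe, which carries lipid out of macrophages, had 3368 TPM. Npc2, which moves cholesterol in the lysosome, had 767 TPM, Lpl, lipoprotein lipase, 279.8 TPM, and Apob, the core of hepatic lipoproteins, 0.185 TPM.

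Among proteases and their inhibitors, Cst3, the cysteine protease inhibitor cystatin C, was highest at 1510.1 TPM. Adam8, a membrane-anchored metalloprotease, had 1253 TPM, Plau, urokinase, 739 TPM, and Mmp12, the macrophage elastase, 182 TPM. Other matrix metalloproteases were low, with Mmp19 at 12.3 TPM, Mmp13 at 10.1 TPM and Mmp9 at 1.17 TPM. The stefin genes Stfa1, Stfa2 and Stfa3 of myeloid progenitors and neutrophils were listed at 0. Structural matrix was low: fibronectin, from Fn1, had 10.5 TPM, and Col4a1 1.74 TPM. After Spp1, the matrix list was led by Lgals3, Gpnmb and the lectin-related Lgals1 (2732 TPM) and Lgals3bp (931 TPM), with Tgfbi, an integrin-binding matrix protein, at 423 TPM.

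At the surface, the machinery that signals through immune tyrosine motifs was strongest. Fcer1g, the shared gamma chain of Fc receptors, had 3346 TPM and Tyrobp, the adaptor DAP12, 3085 TPM, at ranks 27 and 30. The receptors that use them were lower. Trem2, a lipid sensor that pairs with DAP12, had 1452 TPM, the Fc receptors Fcgr3 647 TPM and Fcgr1 290.1 TPM. Fcgr2b, the inhibitory Fc receptor, had 135 TPM. Other inhibitory receptors were higher: Lilrb4a had 2829 TPM, Sirpa, which reads the CD47 signal on healthy cells, 699 TPM, and Pirb 229 TPM. The level of Lilrb4a is uncertain, since 97.3% of its words occur in other genes and the table lists it in 2 rows, of which the higher holds 1865 TPM. In all, 27 of 31 Fc receptor and adaptor genes were expressed and 15 reached 100 TPM.

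The stretches ahead of 3 such surface genes are printed because surface genes held the purine-rich letters GAGGAAG, the core of PU.1 sites, more often than promoters at large. Capitals mark GAGGAAG on either strand. Positions are chr17:48346241-48346400 (plus) for Trem2, chr3:96293970-96294129 (minus) for Fcgr1 and chr7:128062480-128062639 (plus) for Itgam, RefSeq, GRCm38.p6.
Trem2: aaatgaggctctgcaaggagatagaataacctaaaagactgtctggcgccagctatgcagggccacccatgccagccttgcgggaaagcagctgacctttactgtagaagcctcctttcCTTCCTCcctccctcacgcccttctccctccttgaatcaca
Fcgr1: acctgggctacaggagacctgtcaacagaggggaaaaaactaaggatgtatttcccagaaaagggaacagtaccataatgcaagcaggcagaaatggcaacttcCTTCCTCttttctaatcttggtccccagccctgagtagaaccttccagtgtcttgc
Itgam: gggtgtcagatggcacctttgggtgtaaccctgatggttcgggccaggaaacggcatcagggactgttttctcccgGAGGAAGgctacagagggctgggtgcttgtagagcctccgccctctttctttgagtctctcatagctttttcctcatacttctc
The match begins at position -41 in Trem2 and -56 in Fcgr1, on the reverse strand in both, and at -84 in Itgam on the forward strand. Over the surface class, 80 of 304 windows held the letters (26.3%), against 13.4% of the 19922 windows of protein-coding genes. Among the 200 highest genes the share was 14.5%, close to that of all windows, and among expressed genes 13.9%. Windows were found for 254 surface genes, and some genes have several. This is a description of letters in lists that were chosen for macrophage function.

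Pattern receptors were broadly expressed at moderate levels, 23 of 29, with none above 1000 TPM. Clec4d, a C-type lectin for mycobacterial lipid, was highest at 573 TPM, then Cd14, the coreceptor for bacterial lipopolysaccharide, at 404 TPM. Cd180 (317 TPM) and its partner Ly86 (267 TPM), which restrain that pathway in some cells, exceeded Tlr4 (42.8 TPM) and its partner Ly96 (40.03 TPM). Among Toll-like receptors the endosomal Tlr13 (202 TPM), a sensor of bacterial ribosomal RNA, was highest, followed by Tlr7 (77.4 TPM), Tlr2 (49.8 TPM) and Tlr8 (45.2 TPM). Unc93b1, which carries the endosomal receptors to their place, had 316 TPM. Tlr5 (2.32 TPM) was below 5 TPM, and Tlr11 and Tlr12 were listed at 0.

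Receptors for debris and lipoprotein followed. After Cd68 came Msr1, scavenger receptor A, at 591 TPM, Cd36, a fatty-acid and oxidized-lipid receptor, at 486 TPM, Stab1 at 367 TPM and Lrp1 at 355 TPM. Of the TAM receptors for dying cells, Axl had 64.6 TPM, Mertk 22.1 TPM and Tyro3 0.362 TPM. Cd163, the hemoglobin receptor, and Marco were at 1.84 and 1.63 TPM, and Timd4 was listed at 0.

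Csf1r led the cytokine and growth factor receptors, 41 of 57 of which were expressed. Il10rb (272 TPM), Csf2ra (181 TPM), Ifnar2 (161 TPM) and Il2rg (145 TPM), chains of the receptors for interleukin 10, GM-CSF, type I interferon and several interleukins, came after it. Both chains of each interferon receptor were expressed, with Ifnar1 at 68.8 TPM, Ifngr1 at 74.7 TPM and Ifngr2 at 91.1 TPM. Receptors for platelet-derived and epidermal growth factors were below 1 TPM, with Pdgfrb at 0.304 TPM and Egfr at 0.197 TPM. The anaphylatoxin receptors C5ar1 (573 TPM) and C3ar1 (398 TPM) led the chemoattractant receptors, well above the chemokine receptors Ccr1 (85.9 TPM), Cxcr4 (71.2 TPM) and Cx3cr1 (34.96 TPM). Ccr2, whose ligands were so high, stood at 32.5 TPM. Formyl peptide receptors were low, with Fpr2 at 1.07 TPM and Fpr1 at 0.556 TPM. Among other G protein-coupled receptors the highest after Adgre1 was P2ry6, a receptor for UDP from dying cells, at 165 TPM.

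Integrins of leukocytes and of other cells were expressed side by side. Itgb2, the shared beta chain CD18, had 576 TPM and its alpha partner Itgam, CD11b, 303 TPM, a level that is uncertain since 70.3% of its words occur in other genes, mainly Gm49368. Other partners of CD18 were low, Itgal at 13.3 TPM and Itgax at 6.96 TPM. Itgb1 had 362 TPM, Itgb5 284 TPM and Itga5, the fibronectin receptor chain, 167 TPM. In the tetraspanin family 15 of 23 were expressed, led by Cd63 (1118 TPM), Cd9 (748 TPM) and Cd53 (631 TPM), while the other 8 were below 1 TPM. The 4-span MS4A proteins were led by Ms4a7 (1139 TPM) and Ms4a6d (393 TPM), with the B cell member Ms4a1 (CD20) at 0.192 TPM. Of the small anchored glycoproteins, Ly6e had 2109 TPM, the interferon-induced tether Bst2 1841 TPM and Cd52 1381 TPM, all above Ptprc, the pan-leukocyte phosphatase CD45, at 142 TPM.

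Antigen display was strongly tilted to class I. H2-D1 (2093 TPM) and H2-K1 (1752 TPM), the classical heavy chains, summed to 3844 TPM, and 13 of 14 class I genes were expressed. The class II chains H2-Aa (21.3 TPM), H2-Ab1 (19.1 TPM) and H2-Eb1 (15.5 TPM) summed to 56.0 TPM. Their chaperone Cd74 had 49.1 TPM and their master regulator Ciita 0.438 TPM. The costimulators Cd86 (18.97 TPM), Cd80 (13.6 TPM) and Cd40 (20.9 TPM) were expressed at low levels.

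In the nucleus, proteins of chromatin and RNA processing were highest. Ptma, prothymosin alpha, a small acidic chromatin protein, had 1370.3 TPM, the replacement histone genes H3f3b 862 TPM and H3f3a 723 TPM, and the RNA-binding Hnrnpk 727 TPM. All 41 splicing factors and hnRNPs were expressed, the lowest being Srsf4 at 32.4 TPM. Of 45 chromatin proteins 42 were expressed, with Hmgn3 (4.96 TPM), Tet2 (4.54 TPM) and Kdm6b (1.63 TPM) below 5 TPM. Replication-dependent histones, whose transcripts mostly lack the poly(A) tails on which the protocol selects, had a median of 3.95 TPM.

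Transcription factors were lower than these, with a median of 41.8 TPM in the myeloid list against 68.7 for chromatin proteins and 144.9 for splicing factors. Id2, an inhibitor of basic helix-loop-helix factors, led at 507 TPM, ahead of Spi1. Irf7 (327 TPM), Atf4 (236 TPM), Irf5 (168 TPM), Klf6 (152 TPM), Nfe2l2 (143 TPM) and Irf8 (141 TPM) followed. Maf (58.96 TPM), a factor of mature macrophages, Cebpa (85.6 TPM) and Cebpb (45.2 TPM) were expressed as well. Factors of other blood lineages and of progenitors were low: Myb (0.674 TPM), Gfi1 (0.113 TPM), Gata2 (0.0629 TPM) and Spib (0.356 TPM) were all below 1 TPM. Of 55 factors in the myeloid list 45 were expressed, and in the NF-kB, STAT and IRF list 24 of 26, with Irf4 (0.550 TPM) below 1 TPM.

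Nuclear receptors were the weakest list of the nuclear class, which leaves out zinc finger proteins and replication-dependent histones. None of the 30 reached 100 TPM, 16 were expressed, and the highest was the oxysterol receptor Nr1h2 at 68.6 TPM. Its sister Nr1h3 had 10.4 TPM, Pparg 13.96 TPM, the retinoid partner Rxra 21.6 TPM and the glucocorticoid receptor Nr3c1 21.1 TPM. The zinc finger family, with 465 named members, had 204 expressed and a median of 3.81 TPM. Of these, only Zfp36l2 (123 TPM) and Zfp207 (114 TPM) passed 100 TPM.

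The actin machinery of crawling and engulfing cells was nearly complete, with 59 of 62 genes expressed and 46 at 100 TPM or more. Actb (4292 TPM), the severing factor Cfl1 (2006 TPM), the capping protein Capg (1691 TPM) and the branching subunit Arpc1b (1642 TPM) were high. The list also counts Vim (4097 TPM), which encodes an intermediate filament and not a part of the actin machinery. Lcp1, the leukocyte bundling protein L-plastin, had 885 TPM. Subunit isoforms were chosen unevenly: Arpc1a, the other form of Arpc1b, had 54.6 TPM. Vcl, vinculin of focal adhesions, was low at 9.01 TPM.

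Both glycolytic and mitochondrial genes were widely expressed. Gapdh (3487 TPM), Aldoa (2320.0 TPM), Pkm (2055 TPM), Eno1 (1449.5 TPM) and Ldha (1422 TPM) were high, and 24 of 25 glycolysis genes were expressed. The first enzyme differed by isoform, with Hk3, the myeloid hexokinase, at 258 TPM, Hk1 at 90.4 TPM and Hk2 at 23.9 TPM. Of 85 respiratory chain genes 79 were expressed with a median of 195.2 TPM, and Cox4i1 had 663 TPM. Lipid storage and signalling were led by Fabp5, a fatty-acid carrier (1489 TPM), Alox5ap, the partner of 5-lipoxygenase (1487 TPM), and Plin2, the coat of lipid droplets (893 TPM). The lipoxygenase itself, Alox5, had 6.77 TPM, and the prostaglandin synthase Ptgs2 0.589 TPM. Cholesterol synthesis was modest, 21 of 22 genes expressed with a median of 38.1 TPM. Redox enzymes were led by Prdx1 (2811 TPM) and Gpx1 (1681 TPM).

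Among lists that report the state of a macrophage, most interferon-stimulated genes were expressed. Of 49 interferon-stimulated genes 45 were expressed, 91.8% against 41.8% of all protein-coding genes, with a median of 66.0 TPM and 0.916% of the library. Ifitm3, which blocks virus entry, had 2303 TPM, Ifi27l2a 1076 TPM, the RNA sensor-synthase Oas1a 199 TPM, the ubiquitin-like Isg15 196 TPM and the antiviral enzyme Rsad2 (viperin) 41.7 TPM. The level of Oas1a is uncertain, since 68.8% of its words occur in other genes, mainly Oas1g. The lowest members were GTPases best known from the interferon gamma response, Gbp4 (0.546 TPM), Iigp1 (1.38 TPM) and Gbp5 (1.43 TPM). Interferon transcripts themselves were not prominent, with Ifnb1 at 0.154 TPM and Ifng listed at 0.

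Promoters of 3 of these genes are shown with a pattern picked to match this list. Capitals mark GAAANNGAAA on either strand, the repeated core of the element that interferon-activated factors bind; this pattern was chosen after the levels had been seen. Positions are chr4:156200819-156200978 (minus) for Isg15, chr8:71537473-71537632 (minus) for Bst2 and chr19:34583369-34583528 (plus) for Ifit3, RefSeq, GRCm38.p6.
Isg15: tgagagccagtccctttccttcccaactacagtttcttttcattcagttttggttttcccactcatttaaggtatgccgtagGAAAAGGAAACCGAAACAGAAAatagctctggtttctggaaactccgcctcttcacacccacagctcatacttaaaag
Bst2: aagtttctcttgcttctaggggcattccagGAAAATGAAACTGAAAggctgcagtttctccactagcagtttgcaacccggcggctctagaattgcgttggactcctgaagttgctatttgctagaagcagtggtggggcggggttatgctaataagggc
Ifit3: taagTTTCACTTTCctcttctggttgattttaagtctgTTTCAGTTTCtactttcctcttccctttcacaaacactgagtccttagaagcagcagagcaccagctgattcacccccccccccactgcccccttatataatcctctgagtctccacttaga
In Isg15 3 overlapping matches begin at -78, -72 and -66, in Bst2 a pair begins at -130 and -124, and in Ifit3, at 98.03 TPM, separate matches lie on the reverse strand from -156 and -122. Among the windows of the interferon list 27 of 41 held the pattern (65.9%), against 3.45% of all windows and 6.02% of those of the 200 highest genes. The list was made of genes known to answer to interferon, so a high share was built in. It describes the list and not this library. In the same list TGACTCA was found in 7 of 41 windows (17.1%) against 4.65% of all windows, and GAGGAAG in 12.2% against 13.4%. TATAAA, the letters of the TATA box, was found in 15.7% of windows of the 200 highest genes, 12.1% of all windows and 6.61% of windows of expressed genes. The first share is 26 of 166 windows, which cover only 129 of the 200 genes. The letters were counted on either strand anywhere in the window, so a match need not be a TATA box.

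Inflammatory activation genes were divided. Of 30 measured, 15 were expressed, led by Ccl4 and Ccl3, with Tnfaip3, a brake on NF-kB, at 35.8 TPM and Acod1, which makes itaconate, at 18.2 TPM. The effectors of full activation were not: Nos2 had 0.116 TPM, Il1b 1.24 TPM, Ptgs2 0.589 TPM, and Il12a was listed at 0. In the interleukin 4 list 8 of 25 were expressed (32.0%), and in the inflammatory list 15 of 30, shares not far from the 41.8% of all protein-coding genes. Tgm2, a crosslinking enzyme, had 228 TPM and Mrc1, the mannose receptor, 89.4 TPM, but Arg1 stood at 5.77 TPM and Retnla, Chil4, Ccl17 and Alox15 were listed at 0.

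Genes of the proliferation list were nearly all expressed. Of 46, 45 were expressed (97.8%, beside 41.8% of all protein-coding genes), the exception being the inhibitor Cdkn2a at 2.03 TPM. The tubulin gene Tuba1b was highest at 1490 TPM, 23.3% of the sum of the list, and 86.0% of its 31-base words occur in other genes. How many cells were dividing was not tested. Pcna, the replication clamp, had 539.9 TPM, Ccnd1, the cyclin that CSF1 induces, 383 TPM, Cdk1 155 TPM, Top2a 102 TPM and Mki67 42.5 TPM. The inhibitor Cdkn1a was also high at 344 TPM. Among 40 genes of CSF1 receptor signalling 30 were expressed, including the kinases Mapk3 (209 TPM), Akt1 (178 TPM) and Lyn (117 TPM) and the phosphatases Ptpn6 (208 TPM) and Inpp5d (134 TPM). The ligands were low, Csf1 at 30.5 TPM and Il34 listed at 0. Stress factors were moderate, with Atf4 as above, Ddit3 at 133 TPM and the endoplasmic chaperone Hspa5 at 937 TPM. Among immediate early genes Mcl1 was highest (209 TPM), while Egr1 (3.02 TPM) and Nr4a1 (2.34 TPM) were below 5 TPM.

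A single comparison sets this ranking beside that of the fibroblast library. Of the 200 highest macrophage genes, 129 (64.5%) were also among the 200 highest of the fibroblasts and 71 were not. All 55 ribosomal proteins and all 12 mitochondrial genes were shared. By assigned role, none of the 13 genes of surface and membrane signalling was, nor was either interferon-stimulated gene. Only 3 of 14 genes with a secreted role and 5 of 19 with a lysosomal role were. Some unshared genes ranked not far below 200 in fibroblasts. With a secreted role these were Mif (223) and Lgals3 (238), and in the surface group Itm2b (260), Emp3 (267) and Gng5 (320). The counts thus depend on the cut at 200, and also on the single role given to each gene. B2m and Cd63, members of the surface class with other roles here, ranked 121 and 78 in fibroblasts. Psap, a member of the secreted class counted here as lysosomal, ranked 155. The 3 shared genes with a secreted role were Spp1, Lgals1 and Cst3, at 3031, 4051 and 1877 TPM in fibroblasts. Of the 200 genes, 31 ranked below 1000 in fibroblasts. Below 5 TPM there were 15: C1qa, C1qb, C1qc, Fcer1g, Tyrobp, Trem2, Lilrb4a, Lilr4b, Ctss, Mpeg1, Laptm5, Cd52, Ms4a7, Ifi27l2a and Lcp1. Each of these 15 stood between 885 and 3514 TPM in the macrophage library and between 0.870 and 3.11 TPM in the fibroblast library. With 1 library each, spread between cultures is unknown, and the medium, the age of the donors and the number of cells cannot be told apart from the cell type.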

How the data were processed

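RNA of 1 macrophage and 1 fibroblast culture was measured. The deposited values are TPM (length-corrected transcript shares) for each gene, computed by the authors with kallisto 0.43.1 for the mouse build GRCm38, per the submitters' processing notes. Which transcripts were used, how they were summed to genes and whether low values were dropped is not given in the sources. The unit was read from the column totals, 999609 and 999545. The table has 34456 rows. Rows that share a symbol were added, which gave 34295 genes. Of 158 genes on several rows, 129 have identical rows, and adding counts 2141 TPM again. Gene classes and positions come from GENCODE M21 (GRCm38), which matched 32257 genes (94.1%), and promoter windows from RefSeq (GRCm38.p6). The share of 31-base words that a gene's transcripts have in common with other genes was counted over the annotated transcripts, and Lyz2 and Lyz1 windows were aligned with Biopython 1.88. Python 3.11.15, pandas 2.3.3, numpy 2.4.6 and matplotlib 3.10.9 were used, and the summing and ranking steps were tested on simulated data. Depth is unknown, and the precision of a level cannot be given.

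The named genes are the 40 highest, the 8 highest and up to 4 lowest members of each list, the 15 highest of each class, the 6 markers and near copies. Genes outside that rule, named for their function or as partners of a named gene, were chosen after their values were seen. The members and lists were chosen with earlier results of these data known. A list of nuclear noncoding RNAs was not analysed here, since none of its 18 symbols matched. Alternatives were the highest single row of a gene, totals without mitochondrial, non-coding, ribosomal or the 10 highest genes, minimum levels of 1 and 10 TPM, and lists of the 100 and 400 highest genes. Class shares without the 10 highest genes and a wider nuclear class were added after seeing the data.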

Additional observations from a re-analysis of the deposited data

How the results depend on the processing

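With 1 library, a share counts as moved whenever it changes, and all changes below follow from the new totals or from dropped genes. With the highest single row of a gene, the 6 markers held 2.05% of TPM, the 200 highest genes 44.7%, iron and heme handling 5.40%, ribosomal proteins 8.76%, the lysosome lists 6.94%, and the secreted, surface and nuclear classes 7.86%, 5.71% and 2.07%. Without mitochondrial genes, in the same order, the values were 2.10%, 43.9%, 5.54%, 9.004%, 7.13%, 8.08%, 5.97% and 2.15%. With protein-coding genes alone they were 2.14%, 45.7%, 5.65%, 9.17%, 7.24%, 8.22%, 6.07% and 2.19%. Without the 10 highest genes, iron and heme handling fell to 0.452%, since the ferritin pair is among those left out, ribosomal proteins held 9.99% and the lysosome lists 6.32%. In the same setting antimicrobial proteins held 0.0570%, cytokines 0.0700%, MHC class I 0.526%, matrix proteins 0.999% and lysosomal proteases 1.97%. Added after seeing the data, it gave 5.39% for the secreted, 5.80% for the surface and 2.38% for the nuclear class, so the order of the first pair turned. Also added, zinc fingers and replication-dependent histones brought the nuclear class to 2.47% and 401 expressed members. Counts of genes at 1 or 5 TPM, of genes that hold 50% of the library, of class members and of genes shared with the fibroblast library stayed within 1.5 times the reported count under each other alternative run for them. With protein-coding genes alone the B cell list held 0.000529% in place of 0.00160%, and 6999 genes in place of 17837 were listed at 0. Class members at 1 TPM or more were 126 secreted, 253 surface and 187 nuclear, and at 10 TPM or more 82, 204 and 161. Of the 100 highest genes 55.0% were shared with the fibroblasts, and of the 400 highest 65.0%. No paired analysis was possible because the groups share only replicate number 1 and no test was made. Depth is unknown, so how far low values and zeros reach cannot be stated.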

Other observations

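Some genes that none of the lists above describes stood high, and they were picked after their values had been seen. Npy, the neuropeptide Y precursor, had 558 TPM, and Wfdc17, a small secreted protein with a protease-inhibitor fold, 535 TPM. Selenop, the plasma carrier of selenium, had 517 TPM, App, the amyloid precursor, 588 TPM, and the metal-binding Mt1 436 TPM. Among cytosolic and organelle genes, the brain-type creatine kinase Ckb had 693 TPM, the mitochondrial carrier Ucp2 643 TPM, the G protein regulator Rgs1 638 TPM, the endocytic adaptor Dab2 509 TPM, the endolysosomal nuclease Pld4 469 TPM and the RNA-editing deaminase Apobec1 466 TPM. Counted as whole families, the solute carriers, 371 genes, had 149 members at 5 TPM or more (40.2%) and 94 listed at 0. Their share was close to the 41.8% of all protein-coding genes, and their median was 0.648 TPM. Of 68 Rab GTPases, regulators of vesicle traffic, 42 reached 5 TPM (61.8%).

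A pair of genes stood far above their families. Lars2, at 6453 TPM, is 1 of 35 tRNA synthetase genes, of which the others had a median of 32.2 TPM and the next highest, Sars, 171 TPM. It was also high in the fibroblast library, at 2568 TPM. Chd9, a chromatin remodeller, had 718 TPM, against 71.7 TPM for the next of its 9-gene family, Chd4, and 271 TPM in fibroblasts. Of the 31-base words of Lars2, 0.928% occur in other genes. Where in either gene the reads lie was not examined, and the reason for these levels was not tested.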
